A study of Mus musculus with 4 samples.

Results

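E proteins are helix-loop-helix transcription factors, and Id proteins are their inhibitors. The 6 genes measured here, of 31829 gene names on the arrays, were the E protein genes Tcf3, Tcf4 and Tcf12 and the inhibitor genes Id1, Id2 and Id3. They were read by every array probe that carries 1 of these gene names and is not a control spot, 9 probes of the 39429 gene probes on each array. The cells came from the spleens of female C57BL/6 mice aged 8 weeks. One group was kept for 72 h with 10 µM imatinib, an inhibitor of ABL, KIT and PDGFR kinases, and the control group for as long without it, both with IL-4 and LPS, a mix that drives B cells to divide and switch antibody class. Each group had 2 Agilent 1-colour arrays. The labels do not say whether its 2 samples came from separate animals or cultures, so p-values measure only the spread between these samples, which may be technical. The cells were whole splenocytes, not sorted B cells, and in such bulk RNA fewer cells of a type and less RNA per cell cannot be told apart.

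E proteins bind the E-box motif of DNA as dimers. Tcf3 encodes E12 and E47, the splice forms known together as E2A, which are needed for B cell development and take part in class switching of activated B cells. Id proteins pair with E proteins but lack the basic region that contacts DNA, so that an E-Id dimer does not bind. In the immune system, Id2 is known for its part in NK cells, innate lymphoid cells, dendritic cells and effector T cells, and Id3 for its part in naive and memory lymphocytes.

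Imatinib arrays had less Tcf3 and less Id3 RNA than control arrays, and more Id2 and Id1 RNA. Id2 signal was 4.44 times and Id1 signal 2.34 times that of the control arrays, while Id3 signal was 2.05 times higher in control. Tcf3 signal with imatinib was 0.732 and 0.702 times that of control on its 2 probes. The Tcf4 and Tcf12 probes were higher with imatinib by smaller ratios, of 1.21 to 1.74, and the calls of the Tcf12 probes and of the brighter Tcf4 probe depended on how the arrays were scaled.

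The labels name E2A as a factor of interest, which makes it matter what each probe reads. Both Tcf3 probes carry RefSeq accessions of the E2A gene. Neither belongs to Tcf7l1, a gene that once bore the name Tcf3. The Tcf7l1 probe itself was not well above background on any array, with processed signals of 2.55 and 1.63 with imatinib and 6.55 and 9.49 in control. The sequences of 7 of the 9 probes, from the deposited scanner files, show the stretch of transcript behind their values, and those of the 2 Tcf4 probes are not shown here. They are given 5′ to 3′, whole for a Tcf3 and the Id3 probe and as the first 30 of 60 bases for the others, and none of them holds a run of 12 or more bases of a short repeated unit. No letters are in capitals, because no part of a probe was singled out.
Tcf3 A_51_P394471: cagaaaagttccttcctctcggttaaccag
Tcf3 A_55_P1975354: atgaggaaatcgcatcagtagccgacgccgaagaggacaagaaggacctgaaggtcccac
Tcf12 A_52_P20048: atttacaatagcattttaagagcatagtag
Tcf12 A_55_P2433438: gtggtgtacaaaatcagtctggaagtgttg
Id1 A_55_P2052563: attgttttacaatagttctatgggggtgag
Id2 A_52_P240542: tgagtgaaccttgtggactctttaattaga
Id3 A_51_P380178: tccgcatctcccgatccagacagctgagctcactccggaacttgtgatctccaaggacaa

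The processed signal is the background-subtracted brightness of a spot. For comparison between arrays its log2 was taken relative to the 75th percentile of the gene spots of the same array, which was 699 and 678 for imatinib and 739 and 854 for control. On this scale, called the normalised log2 signal here, 0 is a spot as bright as that percentile. Levels of different probes are not comparable, since probes differ in binding. Differences are imatinib minus control with SE, and adjusted p-values are from limma with Benjamini-Hochberg adjustment over 25375 tested probes. All 9 probes were tested and were well above background on all 4 arrays. All 9 passed an adjusted p of 0.05, where 41.9% of all tested probes did, and the groups did not overlap on any of the 9, where they did not overlap for 73.7% of all tested probes. Higher with imatinib were 6 of the 9, against 19.3% of all tested probes, and lower were 3 of the 9, against 22.5%. Probes of 1 gene are not independent. With 2 arrays a group, the smallest two-sided p of an exact permutation test is 0.333.

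**Figure D1:**
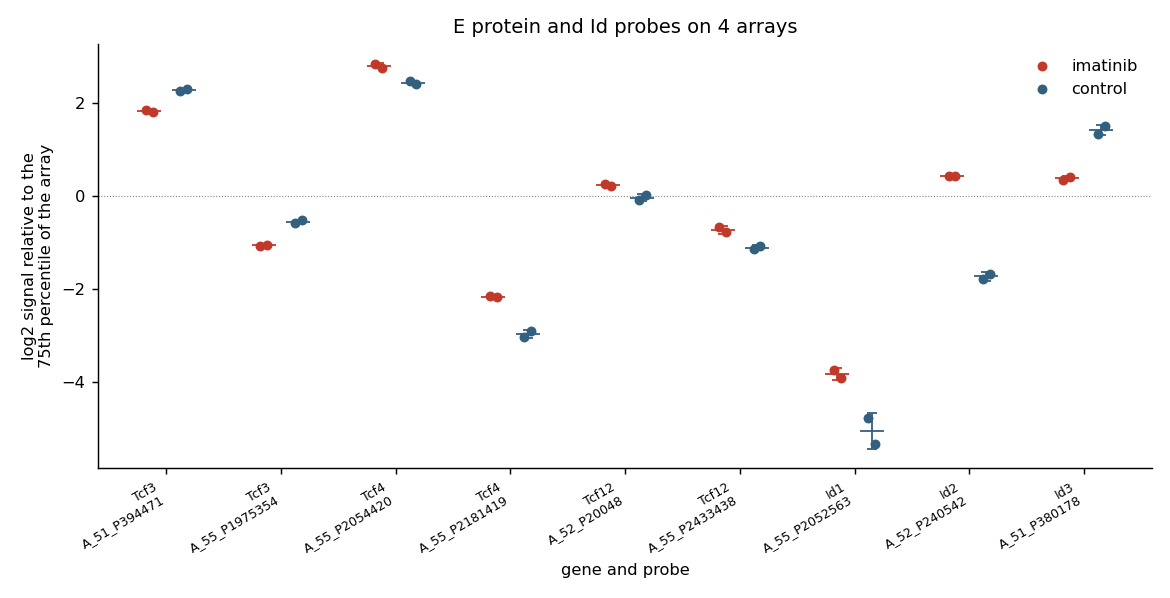
The vertical axis is the normalised log2 signal of the 9 probes along the horizontal axis. Points are arrays (2 per group), dashes the group means and bars the SD. Imatinib points lie above control points for the Tcf4, Tcf12, Id1 and Id2 probes and below them for both Tcf3 probes and Id3.

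Tcf3 was lower with imatinib on both probes, to a similar degree. On probe A_51_P394471 its normalised log2 signal was 1.84 and 1.80 with imatinib, against 2.25 and 2.29 in control. Both imatinib arrays lay below both control arrays, and the gap between the groups was 0.41, against at most 0.042 between arrays of a group. The difference was -0.45 (SE 0.060, limma adjusted p = 0.0095). On probe A_55_P1975354 the normalised log2 signal was -1.06 and -1.05 with imatinib and -0.57 and -0.52 in control. Again the groups did not overlap, and the difference was -0.51 (SE 0.059, limma adjusted p = 0.0073). The distance between the 2 probes on the same array was larger with imatinib by 0.060, close to the widest gap of 0.054 between arrays of a group. The fall on the 2 probes was no longer called by limma without imatinib replicate 1 (adjusted p = 0.0615 and 0.0562) or without imatinib replicate 2 (adjusted p = 0.0713 and 0.0552), at nearly the same size.

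Tcf4, the gene of the E protein E2-2, which is known for its part in plasmacytoid dendritic cells, was higher with imatinib on both probes, but by unequal amounts. The brighter probe, A_55_P2054420, had a normalised log2 signal of 2.84 and 2.76 with imatinib and 2.46 and 2.40 in control, a difference of 0.36 (SE 0.065, limma adjusted p = 0.018). The dimmer probe, A_55_P2181419, had -2.15 and -2.17 with imatinib and -3.02 and -2.89 in control, a difference of 0.80 (SE 0.073, limma adjusted p = 0.0046). The groups were apart on both probes. On the same array the distance between the 2 probes was 4.98 and 4.93 with imatinib and 5.49 and 5.30 in control, a change of -0.43 against at most 0.19 between arrays of a group, and with normexp, another background correction, their differences were 0.35 and 0.58. The brighter probe was not called without imatinib replicate 1, imatinib replicate 2 or control replicate 2 (limma adjusted p = 0.113, 0.0808 and 0.0641).

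Tcf12, the gene of the E protein HEB, differed least. Probe A_52_P20048 had a normalised log2 signal of 0.27 and 0.21 with imatinib and -0.09 and 0.02 in control, a difference of 0.28 (SE 0.071, limma adjusted p = 0.041). Probe A_55_P2433438 had -0.67 and -0.78 with imatinib and -1.14 and -1.07 in control, a difference of 0.38 (SE 0.071, limma adjusted p = 0.021). The groups were apart only after scaling. Before it, the processed signals of the first probe were 842 and 786 with imatinib and 693 and 864 in control, and those of the second were 438 and 395 with imatinib and 336 and 406 in control, so the groups overlapped on both. Leaving out any 1 of the 4 arrays ended the call of both Tcf12 probes, with limma adjusted p of 0.0591 to 0.192 for the first and 0.0563 to 0.116 for the second.

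Among the inhibitors, Id2 showed the largest difference of the 9 probes. Its normalised log2 signal was 0.43 on both imatinib arrays, against -1.79 and -1.66 in control. The imatinib arrays lay 2.09 above the higher control array, against a gap of 0.13 between the control arrays. The difference was 2.15 (SE 0.072, limma adjusted p = 0.00075), above that of 98.3% of all tested probes. It passed under all 13 alternative settings, at 1.84 to 2.22.

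Id3 went the other way. Its normalised log2 signal was 0.35 and 0.42 with imatinib and 1.34 and 1.50 in control. Both imatinib arrays lay below both control arrays, and the difference was -1.04 (SE 0.082, limma adjusted p = 0.0034), with 1.38% of all tested probes having a lower one. It passed under all 13 alternative settings, at -1.32 to -0.96. Measured on the same array, Id2 moved by 3.19 relative to Id3 between the groups, against at most 0.063 between arrays of a group. This value does not change when a constant is subtracted from each array. It does change with other processing, since with normexp the differences of Id2 and Id3 came to 1.84 and -0.96.

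Id1 was the dimmest of the 9 probes. Its processed signals were 52.9 and 45.1 with imatinib and 27.0 and 21.5 in control, where the lowest signal called well above background was 8.69 and 6.31 for imatinib and 8.69 and 10.3 for control. Its normalised log2 signal was -3.72 and -3.91 with imatinib and -4.77 and -5.31 in control. The groups were apart, and the difference was 1.22 (SE 0.21, limma adjusted p = 0.016). The size depended on the background correction, at 0.52 with normexp, and the call ended without imatinib replicate 1 (adjusted p = 0.0682) or imatinib replicate 2 (adjusted p = 0.0552). Id4, the remaining Id gene, had processed signals of 2.38 and 1.76 with imatinib and 2.35 and 2.61 in control, and was not well above background on any array.

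The median difference of all tested probes was 0.00 under the scaling used, -0.19 with the arrays centred on their medians and -0.28 with the arrays scaled to spike-in probes, so every difference shifts by these amounts. The Id2, Id1 and dimmer Tcf4 probes stayed higher and the Tcf3 and Id3 probes lower under both, each with a limma adjusted p under 0.05. The brighter Tcf4 probe came to 0.18 and 0.083 (adjusted p = 0.181 and 0.494), the Tcf12 probe A_52_P20048 to 0.093 and -0.0015 (adjusted p = 0.521 and 0.991) and A_55_P2433438 to 0.19 and 0.096 (adjusted p = 0.205 and 0.487). Relative to Tcf3 on the same array, where a constant subtracted from each array has no part, Tcf4 moved by 0.81, Tcf12 by 0.73, Id1 by 1.67, Id2 by 2.60 and Id3 by -0.59. Each of these values includes the difference of Tcf3 itself, -0.45 under the scaling used. The values of 0.81 and 0.73 are therefore not rises of Tcf4 and Tcf12 alone. The widest gaps between arrays of a group were 0.10, 0.066, 0.58, 0.086 and 0.11 for the same 5 genes, each smaller than the shift. In all 14 settings Id2 had the highest and Id3 the lowest difference of the 9 probes, with the 2 Tcf3 probes next to Id3.

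**Figure D2:**
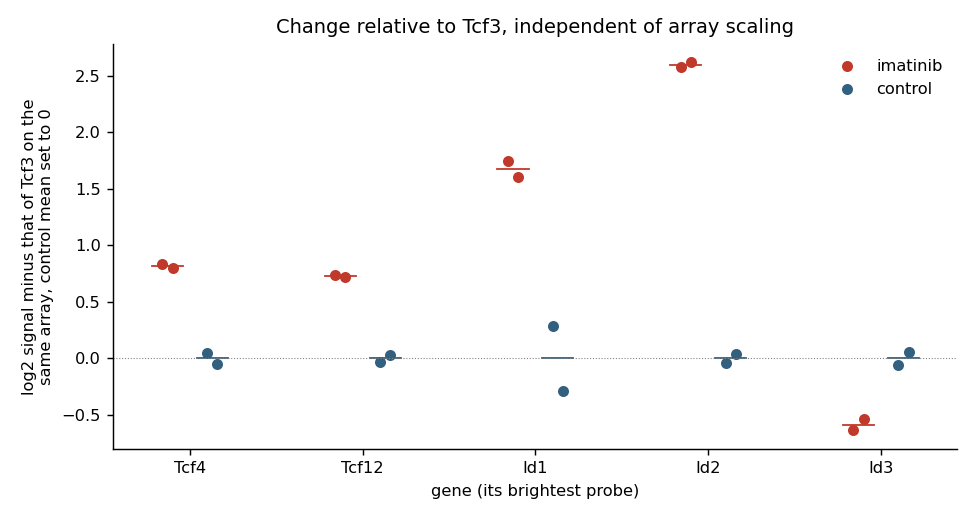
The vertical axis is the log2 signal of a gene minus that of Tcf3 on the same array, with the control mean set to 0; points are arrays (2 per group) and lines group means, and each gene is shown by its brightest probe. Id2, Id1, Tcf4 and Tcf12 lie above the control arrays on both imatinib arrays, by 2.60, 1.67, 0.81 and 0.73 on average, and Id3 lies below them, at -0.59. Each value includes the difference of Tcf3 itself, -0.45 under the scaling used.

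**Figure D3:**
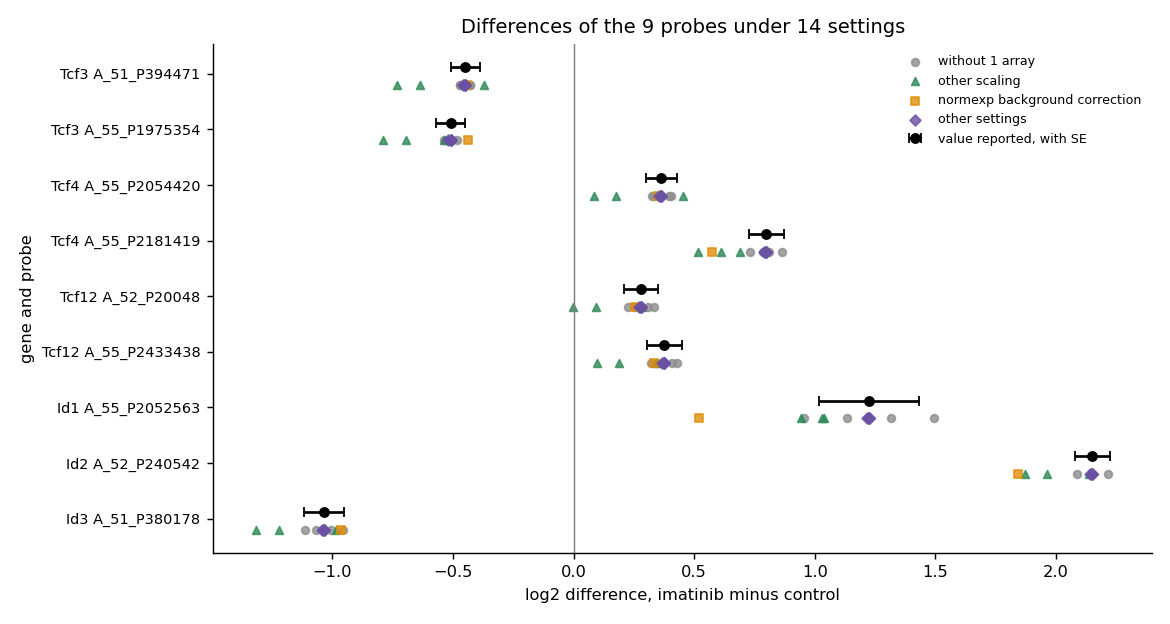
The horizontal axis is the log2 difference, imatinib minus control, of each probe; black points with SE are the values reported, and the other symbols are the 13 alternative settings. The Id2 probe stays between 1.84 and 2.22 and the Id3 probe between -1.32 and -0.96, while a Tcf12 probe reaches -0.0015 under spike-in scaling.

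The promoters of Id2 and Id3 are shown because these genes moved in opposite directions and E proteins bind E-boxes. They are the 250 bases before the gene start in the RefSeq table of build GRCm38.p6, read 5′ to 3′ on the strand of the gene. Id2 lies at chr12:25096093-25096342 on the minus strand and Id3 at chr4:136143572-136143821 on the plus strand. Capitals mark matches to the E-box forms CAGCTG, which reads the same on both strands, and CAGGTG with its reverse complement CACCTG; the forms do not overlap each other in these windows.
Id2: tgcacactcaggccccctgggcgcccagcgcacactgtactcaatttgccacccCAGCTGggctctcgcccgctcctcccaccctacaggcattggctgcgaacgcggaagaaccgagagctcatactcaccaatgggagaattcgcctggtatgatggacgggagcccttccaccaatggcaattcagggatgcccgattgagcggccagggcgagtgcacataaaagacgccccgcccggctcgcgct
Id3: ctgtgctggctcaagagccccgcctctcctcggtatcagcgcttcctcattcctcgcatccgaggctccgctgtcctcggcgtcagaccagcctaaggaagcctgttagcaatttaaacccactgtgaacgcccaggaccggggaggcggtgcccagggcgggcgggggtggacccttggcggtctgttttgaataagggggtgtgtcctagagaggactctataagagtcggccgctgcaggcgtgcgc
The Id2 window held 1 CAGCTG, which began 196 bases before the start, and no CAGGTG. The Id3 window held neither. Of 32851 mouse promoter windows of this length, 13% held CAGCTG, 17.2% held CAGGTG or CACCTG and 27.7% held any of them. A match describes the letters of the window and is not a site.

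Other genes that work with or around the E proteins were followed in 5 lists, each gene by its brightest tested probe. Of 20500 genes tested in this way, 19.4% were higher and 21.7% lower with imatinib, with a median difference of 0.01. Of the lists' genes, 38 had several tested probes, and 1 of them, Nhlh1, had probes called in opposite directions.

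Of 21 helix-loop-helix partners of E proteins, 15 had no tested probe and 6 were tested, with 1 higher, 1 lower and a median difference of 0.15. Bhlha15, the gene of the secretory cell factor Mist1, had a normalised log2 signal of 1.98 and 1.97 with imatinib and 2.35 and 2.33 in control and fell by 0.36 (SE 0.057, limma adjusted p = 0.013). Nhlh1, a neuronal helix-loop-helix gene, was higher by 2.44 on its brighter probe and lower by -0.34 on the other (limma adjusted p = 0.00071 and 0.021), so its direction is not settled. Tal1 had no probe above background, and the related Lyl1 had a difference of -0.12 (limma adjusted p = 0.31).

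Cofactors of E proteins and genes that control the turnover of E or Id proteins moved both ways: of 20 tested, 6 were higher and 7 lower, with a median of 0.06. Gata1 (2.64) and Gata3 (2.33), which encode haematopoietic and T cell GATA factors, rose most of those measured above background in both groups, and with normexp they came to 1.37 and 1.22. Gata3 had a normalised log2 signal of -2.25 and -2.14 with imatinib and -4.58 and -4.48 in control, so its groups lay far apart. Notch1, a receptor that directs T cell fate, was higher by 1.17 (limma adjusted p = 0.0063) on a probe that holds a repeat run of at least 12 bases. Lmo2, whose product bridges E proteins and GATA factors, fell by 0.78, at 3.08 and 3.03 with imatinib and 3.83 and 3.84 in control (limma adjusted p = 0.0030). Lmo1, 1 of the 6 higher genes, was named after its values were seen. It was not well above background in control, so it passed the filter only through the imatinib arrays. It was at least 1.52-fold higher with imatinib. For this bound, the level of each control array was the higher of the dimmest signal above background and the gene's own signal.

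Genes of the TGF-beta, BMP and Egr routes, which are known to regulate Id genes, were higher in 8 of the 14 tested and lower in 0. At an unadjusted p under 0.05 in limma, 1 was lower. Their median difference was 0.50 (0.31 with median centring and 0.22 with spike-in scaling). With median centring, spike-in scaling or normexp, 1 of them was lower after adjustment. Egr1, an immediate early factor, had a normalised log2 signal of 1.47 and 1.42 with imatinib and 0.29 and 0.39 in control, a difference of 1.11 (SE 0.068, limma adjusted p = 0.0020). Egr2 was higher by 1.09, the inhibitory Smad gene Smad7 by 1.11 and the TGF-beta receptor gene Tgfbr1 by 0.81, all with no overlap between the groups. Egr3, 1 of the 8, was not well above background in control, so it passed the filter only through the imatinib arrays. It was at least 2.06-fold higher with imatinib. The receptor-regulated Smad genes Smad2 and Smad3 differed by -0.25 and 0.08 and did not pass (limma adjusted p = 0.088 and 0.34).

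Of 23 tested genes listed as E protein targets in B lineage cells, 10 were higher and 6 lower, with a median of 0.01, and with spike-in scaling 5 were higher and 11 lower. The cytokine receptor gene Il7r (2.21), the repressor gene Gfi1 (1.91) and the cell cycle inhibitor gene Cdkn1a (1.27) had the largest rises. Il7r came to 1.20 with normexp, and the dimmer Cdkn1a probe was higher by only 0.53. Of the B cell identity genes, named after their values were seen, Ebf1 fell by 0.49 and Pax5 by 0.54 (limma adjusted p = 0.012 and 0.011). Foxo1, a partner of E2A in early B cells, was higher by 0.45, and by 0.26 and 0.17 with median centring and spike-in scaling. The B cell receptor genes Cd79a and Cd79b, also E protein targets, had differences of -0.06 and -0.01 and did not pass (limma adjusted p = 0.56 and 0.96).

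Of 11 tested targets in T lineage cells, 6 were higher and 2 lower, with a median of 1.17. The largest were Gata3, Il7r, Tcf7 (1.97), the gene of the T cell factor TCF1, and the chemokine receptor gene Ccr7 (1.36), and Tcf7 came to 1.28 with normexp. The follicular genes Cxcr5 and Bcl6 fell by 0.76 and 0.93. Gata3, Il7r and Notch1 stand in more than 1 list, and several of these genes are also T cell genes.

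Markers of cell types were followed in the same way, each gene by its brightest tested probe. T cell markers were higher in 11 of 13 and lower in 0 (also 0 at an unadjusted p under 0.05 in limma), with a median of 2.05, and their summed level, in multiples of the 75th percentile of the array, was 44.6 and 45.2 with imatinib and 23.1 and 22.2 in control. All 13 were above background. The coreceptor gene Cd4 had a difference of 0.07 (limma adjusted p = 0.68), and Cd8a was higher by 2.44. Macrophage markers were higher in 6 and lower in 1 of 10 tested, with summed levels of 10.4 and 10.6 with imatinib and 7.66 and 7.12 in control. The largest rises were those of Adgre1 (3.60, and 2.99 on its other probe), Marco (2.81) and Lyz2 (2.81), named after their values were seen. With normexp they came to 2.96, 2.63 and 1.40 on the probes used. Csf1r (0.28), C1qb (-0.02) and Mpeg1 (-0.15) did not pass. The lower marker, Itgam (-1.12), was named after its values were seen, and its probe holds a repeat run of at least 12 bases. The other Itgam probes, at 0.03 and 0.44, were not called (limma adjusted p = 0.87 and 0.13). In control the Itgam probe used was the brightest of the list, at a normalised log2 signal of 1.86 and 1.71. With imatinib it had 0.60 and 0.73, so the sums depend on this probe. C1qa, C1qc and Fcgr1 were above background on no array. NK cell markers were higher in 3 and lower in 1 of 5 tested, with sums of 5.12 and 5.13 with imatinib and 3.88 and 3.77 in control. With median centring or spike-in scaling 1 NK marker was higher and 1 lower, and with normexp 4 were higher and 0 lower. The marker lower under the scaling used, the dim Klrd1 (-0.39), came to 0.11 with normexp. The 3 higher markers under that scaling were Gzma (0.51), Nkg7 (0.37) and Eomes (0.91), named after their values were seen. Of this list Klrk1, Klre1 and the defining members Ncr1 and Klrb1c were above background on no array. The part of these cells in the Id2, Id3, Gata3, Il7r and Tcf7 results was not tested.

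Dendritic cell markers, which bear on Tcf4 and Id2, were higher in 2 and lower in 3 of 7 tested, with sums of 119 and 122 with imatinib and 113 and 100.3 in control. Siglech made up most of that sum, at a normalised log2 signal of 6.70 and 6.73 with imatinib and 6.53 and 6.30 in control. It did not pass (limma adjusted p = 0.077), and its other probe on the array was not tested. Itgax, 1 of the 2 higher genes, was above background on no control array, so it passed the filter only through the imatinib arrays. The other higher gene, Ccr9, rose by 2.64 on the probe used, which came to 1.91 with normexp, and by 4.05 on its other probe. The 3 lower genes were Flt3 (-1.41), Batf3 (-1.18) and Bst2 (-0.32). Ccr9, Flt3, Batf3 and Bst2 were named after their values were seen. Neutrophil markers were higher in 4 and lower in 1 of 6, while their sums were 2.7 and 3.0 with imatinib and 3.5 and 3.3 in control. Ly6g, the 1 lower gene, made up most of each sum, at 0.64 and 0.79 with imatinib and 1.32 and 1.29 in control. S100a8 had the largest rise, 3.26, which came to 1.41 with normexp. S100a9, also higher, passed the filter only through the imatinib arrays. Of the mast cell and basophil markers, Mcpt8 and Cpa3 were tested. Neither was above background in control, so they passed the filter only through the imatinib arrays, and they were at least 1.33-fold and 1.59-fold higher with imatinib. Of the erythroid list, 0 of 3 erythroid markers passed at an adjusted p of 0.05 in limma, with 1 at an unadjusted p under 0.05. That 1, Alas2, was above background on no control array. The defining markers Xcr1 and Clec9a of dendritic cells, Ngp of neutrophils, Fcer1a and Ms4a2 of mast cells and Klf1 of erythroid cells were above background on no array. B cell markers were all above background, with 2 higher and 5 lower of 10, a median of -0.16 and sums of 262 and 272 with imatinib and 306 and 286 in control, and with spike-in scaling 1 was higher and 7 lower. Plasma cell markers were higher in 3 and lower in 2 of 7, with sums of 294 and 291 with imatinib and 279.7 and 282 in control, but with median centring 1 was higher and 2 lower, and with spike-in scaling 3 were lower and the other 4 did not pass.

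**Figure D4:**
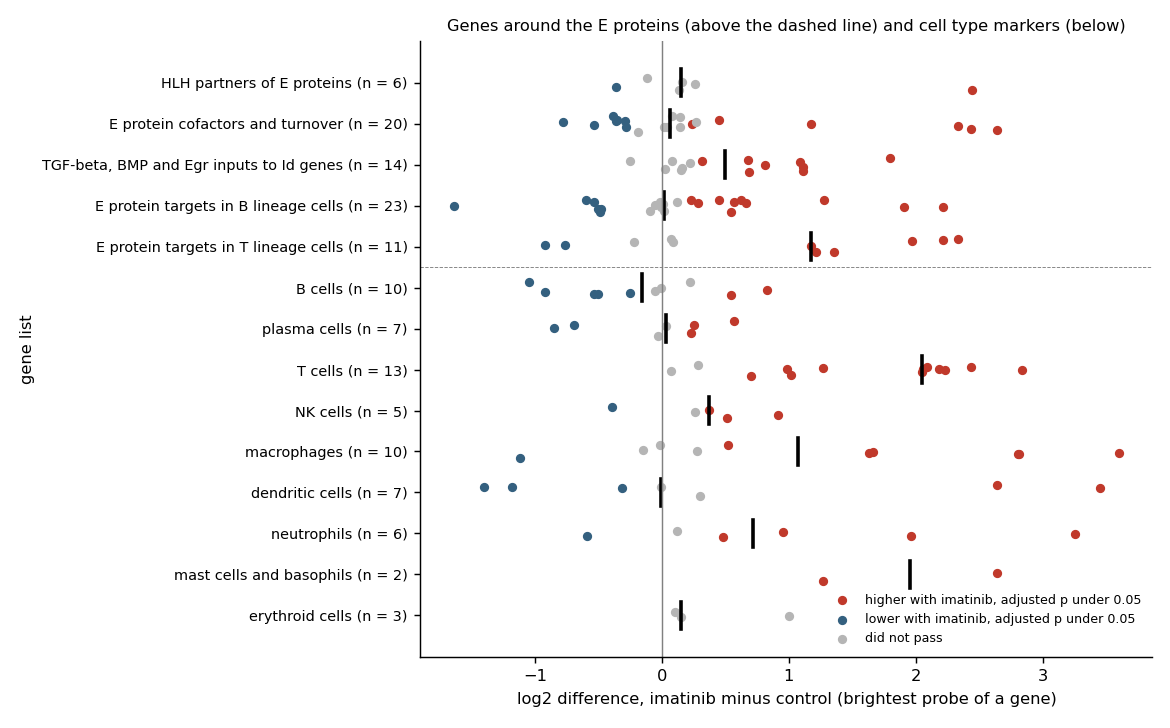
The horizontal axis is the log2 difference, imatinib minus control, and each point is a gene by its brightest tested probe, with a black bar for the median of its list. Red points were higher and blue points lower with imatinib at an adjusted p under 0.05 in limma. Genes around the E proteins are above the dashed line and cell type markers below it. T cell markers have a median of 2.05 and B cell markers one of -0.16, and a few genes that are dim in control, such as Lmo1 and Egr3, are drawn at their fitted value although only a bound holds for them.

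The genes whose pattern over the 4 arrays lay nearest to each member were found among 14332 genes above background on all arrays, by the Euclidean distance between mean-centred log2 values. For Tcf3 they were Mtr, Haus6 and Hikeshi (distances 0.00752, 0.00871 and 0.0105). For Tcf4 they were Zxdb, Frs2 and Zfp148 (0.0150, 0.0154 and 0.0190). For Tcf12 they were Phc3, Asb2 and Zdhhc20 (0.0112, 0.0171 and 0.0185), of which Asb2 is also in the turnover list and differed by 0.27 (limma adjusted p = 0.051). For Id1 they were Kdm7a, Igfbp6 and Wipf3 (0.0435, 0.0851 and 0.0857). For Id2 they were Btn1a1, Klk8 and Rgs10 (0.0513, 0.0556 and 0.0723). For Id3 they were Igf2bp3, Gtf2h2 and Sephs2 (0.0554, 0.0652 and 0.0670). With 2 groups of 2 arrays, such likeness says little more than that the differences have nearly the same size.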

How the data were processed

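RNA of cultured splenocytes was measured on 4 Agilent 1-colour arrays (design 026655), all on 1 slide, imatinib at positions 2 and 4 and control at positions 1 and 3. The deposited scanner files give fluorescence intensity per spot from Feature Extraction 9.1.3.1, per the file headers, with a background-subtracted processed signal. The authors' deposited value table holds log2 values, made in GeneSpringGX per the labels; its columns matched log2 processed signal minus a constant (r at least 0.99997) and served as an alternative.

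Log2 processed signals of a probe's unmarked spots were averaged, and log2 of the 75th percentile of the array's 43020 gene spots was subtracted. A probe was tested if well above background on both arrays of a group with no marked value (25375 probes). The two-sided comparison used limma 3.58.1 under R 4.3.3 (lmFit and eBayes with no covariate, Benjamini-Hochberg), with 2 residual and 2.05 prior degrees of freedom. On simulated data of 25375 probes, 100 were changed by a log2 of 1 and 100 by a log2 of 2. Of these, 56% and 93% were recovered, with 12 false calls. Far fewer probes were changed there than the 41.9% called in the real data, so these shares do not carry over to it. The number of arrays limits precision.

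Gene names came from the RefSeq table of GRCm38.p6 (26055 probes by accession, 3195 by symbol, 930 by synonym); 9249 kept the name in the files. Members and lists were chosen with earlier results of these data known. Named were all member probes, Id4, up to 4 genes per list with the largest changes past the threshold (genes above background on all arrays first) and the 3 nearest genes per member; genes added after their values were seen are named as such or, like Tal1, Lyl1, Egr3, Smad2, Smad3, Cd79a, Cd79b, Foxo1, Cxcr5, Bcl6, Cd4 and Cd8a, here. A few genes are not reported here. Same-numbered arrays did not deviate together (correlation -0.069), so no pairing was used. Alternatives were normexp (offset 50), quantile, median and spike-in scaling, 2 other filters, a replicate block, a trend and robust variance model, the value table and each array left out.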

Additional observations from a re-analysis of the deposited data

How the results depend on the processing

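With 2 arrays per group, leaving 1 out leaves a lone array that is assumed to vary like the other group. Over these 4 fits the difference ran from -0.471 to -0.428 for Tcf3 probe A_51_P394471, 0.327 to 0.402 for Tcf4 probe A_55_P2054420, 0.226 to 0.334 for Tcf12 probe A_52_P20048 and 0.956 to 1.49 for Id1. The numbers of probes called ran from 4040 to 8878 in either direction, 2417 to 4706 higher and 1555 to 4172 lower, against 10622, 4905 and 5717. Median centring gave 0.178 for Tcf4 and 0.0928 for Tcf12, with 9251 probes lower. Spike-in scaling gave 0.0832 for Tcf4 and -0.00153 for Tcf12, with 2802 probes higher and 11739 lower. Both subtract a constant from each array, which moves all differences alike. With no filter on dim probes, Tcf4 (0.365), Tcf12 (0.280) and Id1 (1.22) kept their size and lost the call, and 4971 probes were called, 2837 higher and 2134 lower; the cause was not tested. With the replicate block, Tcf12 (0.280, adjusted p = 0.101) lost the call and 3509 probes were lower, and the block changed no other call of the brightest probes of the 6 genes. Among the lists, helix-loop-helix partners had 2 higher with normexp, and 2 lower with median centring, spike-in scaling or all probes counted. Id2, Id3 and the dimmer Tcf4 probe kept direction and call under all 13 alternatives. With normexp, the dim Id1 probe came to 0.52 and kept its call.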
